A study of Homo sapiens with 2 samples.

Results

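The sgRNAs described here are those against 25 genes of cholesterol synthesis, its control by SREBP and the export of cholesterol from lysosomes. They were taken from the deposited table by gene symbol, with no filter on their counts, and number 98 of the 74336 distinct sgRNAs (25 of 19112 genes). Of these genes, 23 have 4 listed sgRNAs, and MVK and NPC1 have 3. The counts come from A673, a Ewing sarcoma cell line, in the form of a single knock-in clone whose EWSR1::FLI1 gene carries tdTomato and which also expresses EGFP and Cas9 from lentiviral vectors. A673 grows in culture without EWSR1::FLI1, so loss of the fusion need not remove a cell from the pool. The Brunello knockout library entered these cells at an MOI of 0.3, and the cells then had puromycin at 2 µg/ml for 12 days and a further 3 days without drug. Of the 2 populations sequenced, 1 was left unsorted and 1 was sorted for low tdTomato with high EGFP (about 7% of cells by the labels) and then expanded. There is 1 library of each, with 10483144 unsorted and 1455322 sorted reads, so every test below compares 2 libraries and not 2 conditions, and no value has a replicate check.

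Cells make cholesterol from acetyl-CoA by way of mevalonate, the isoprenoid farnesyl diphosphate, squalene and lanosterol. When sterols are scarce, SCAP carries SREBP from the endoplasmic reticulum to the Golgi, where proteases release its transcription factor part to switch on the genes of the route, and when sterols are plentiful the INSIG proteins hold SCAP back. The route also touches Hedgehog (Hh) signaling, which the study places upstream of the fusion gene, because SMO binds cholesterol and other sterols. The question put to these counts is whether sgRNAs against the route took a larger or smaller share of the tdTomato low EGFP high cells than of the unsorted cells.

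The sgRNAs below are shown because they carry the main contrasts, and each is a 20-base guide written 5′ to 3′, with the 10 bases next to the PAM, which matter most for pairing with the target, in capitals. Within a gene, sgRNAs are numbered by falling odds ratio. The first set holds all sgRNAs of the genes with at least 2 enriched sgRNAs.

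MVK sgRNA 1: caaagtccctCGCAATACCA
MVK sgRNA 2: gacctcagctTACCCAACAT
MVK sgRNA 3: tgctgccagaCACACCGAGT
CYP51A1 sgRNA 1: gaatgtacgtACCACCCCTG
CYP51A1 sgRNA 2: tttcctttccATGCAAACAA
CYP51A1 sgRNA 3: tcaactactaGTGCTTGGAT
CYP51A1 sgRNA 4: tacgatgtgcCTAATCCAGT
SCAP sgRNA 1: ctgctggacaTAAGCCACCG
SCAP sgRNA 2: ggtccacgtgCACTTCAAGG
SCAP sgRNA 3: gcccaccctcAATGGCGGGT
SCAP sgRNA 4: caggatgccaATCCAGACAA

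The next set pairs, for 3 genes, the only enriched sgRNA with the most abundant sgRNA that had 0 sorted reads. Both members of a pair are aimed at the same gene and differ in outcome.

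SREBF1 sgRNA 1: taaatctgctGTCTTGCGCA
SREBF1 sgRNA 2: gcgatgcctcCAGAAGTACA
DHCR7 sgRNA 1: tgggcatcgaGTTTAACCCT
DHCR7 sgRNA 4: caaaccagagCAGGTGCGTG
MVD sgRNA 1: ggacagcatcGCTCGGCAAG
MVD sgRNA 3: aagctgacagGCAGTACCGT

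The last set was chosen after the values were seen. It shows LSS, whose sgRNAs all had 0 sorted reads, and HSD17B7, whose sgRNAs all kept sorted reads and passed neither call.

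LSS sgRNA 1: agtacttctgGTAGTCGGGA
LSS sgRNA 2: ttccgcggcaCTCAGCCGAA
LSS sgRNA 3: gcagagggatGCGTGCCACG
LSS sgRNA 4: ggcgctcaccATATACCACG
HSD17B7 sgRNA 1: ggatgtcagcAACCTGCAGT
HSD17B7 sgRNA 2: ctagggtctcTATTCCAATG
HSD17B7 sgRNA 3: gaaatctaatTTCAGCCTCG
HSD17B7 sgRNA 4: ggcgtgcaggAACATGAGCA

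As a whole, the sterol sgRNAs were enriched about as often as the library. An sgRNA was called enriched when its odds ratio, sorted over unsorted, reached 2 and its adjusted p stayed under 0.05, as the study's methods set it, and depleted at an odds ratio of 0.5 or lower with the same limit on p. The p-values are from two-sided Fisher's exact tests with Benjamini-Hochberg adjustment over all distinct sgRNAs. By these rules 18 of the 98 sgRNAs (18.4%) were enriched, beside 20.8% of all sgRNAs, and 49 (50.0%) were depleted, beside 51.7%. In the sorted library 56 of them (57.1%) had 0 reads, beside 57.6%. Their unsorted counts were also close to those of the library, with a median of 101 reads beside 103. Of the 25 genes, 15 had at least 1 enriched sgRNA, beside 59.3% of all genes, and 3 (12.0%) had at least 2, beside 18.8%. These 3 genes were MVK, CYP51A1 and SCAP, each with 2, and no gene of the set reached the 4 that the study's methods asked for. Few genes of the library could, as only 542 of all 19112 genes had at least 3. These calls rest on counting error alone: under a negative binomial test whose dispersion was set from the spread of sgRNAs between the 2 libraries, 0 of the 98 were enriched (0.561% of all sgRNAs) with a dispersion of 6.06 and 3 (4.72% of all) with one of 1.09, the value depending on how it was averaged. None was depleted in either, and neither was any sgRNA of the whole library, so this test could not check the depletion calls.

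The sgRNAs of a gene seldom moved together. In 14 of the 25 genes at least 1 sgRNA was enriched while at least 1 other had 0 sorted reads, and 55.2% of all genes showed the same mixture. All sgRNAs had 0 sorted reads for PMVK, LSS and TM7SF2 (3 of 25, beside 14.6% of all genes). All kept sorted reads for FDFT1, HSD17B7 and EBP (3 of 25, beside 4.68% of all genes). Every sgRNA was depleted for LSS and MSMO1 (2 of 25, beside 8.41% of all genes). Where an sgRNA had 0 sorted reads, its fold is computed with that count set to a floor of 3 reads. Such a fold needs more than 21.6 unsorted reads to exceed 1. It is not a 95% bound, because the upper limit of the interval can allow a smaller change. All intervals are exact (Clopper-Pearson) 95% intervals. Because PCR reads without molecular identifiers are not independent molecules, the intervals cover counting error only.

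Among the enzymes of the mevalonate steps, MVK, mevalonate kinase, had the highest odds ratios of the 98 sgRNAs. MVK (NM_000431.3) sgRNA 1 went from 22 reads before sorting to 52 after it, with an odds ratio of 17.0 (10.2 to 29.4; adjusted p = 1.62e-29, Fisher's exact test). MVK sgRNA 2 counted 27 unsorted reads against 57 sorted ones, which gave an odds ratio of 15.2 (9.46 to 25.01; adjusted p = 5.25e-31, Fisher's exact test). MVK sgRNA 3 had 16 unsorted and 0 sorted reads, too few for a call in either direction (upper limit 1.87; adjusted p = 0.279, Fisher's exact test). The intervals of the first pair overlapped, and only 1.48% of all sgRNAs had an odds ratio above that of sgRNA 1. Their unsorted counts were low and their sorted counts ordinary, as the median over all sgRNAs with sorted reads was 40. With a minimum of 30 unsorted reads none of the MVK sgRNAs is counted, and the genes that have 2 or more enriched sgRNAs fall to 1.

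MVD, mevalonate diphosphate decarboxylase, gave 3 different outcomes. MVD sgRNA 1 had 107 sorted reads to 206 before sorting, and its odds ratio was 3.74 (2.93 to 4.75; adjusted p = 6.96e-23, Fisher's exact test). Its second sgRNA, the most abundant of all 98, went from 449 reads before sorting to 53 after it, with an odds ratio of 0.850 whose interval includes 1 (0.627 to 1.13). MVD sgRNA 3, with 70 unsorted reads, and the last, with 25, had 0 sorted reads. With the floor of 3 reads, MVD sgRNA 3 was lower by a factor of 3.24 and was called depleted. The last, lower by a factor of 1.16 on the same floor, was not called, and its upper limit of 1.15 includes no change.

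IDI1, the isomerase that interconverts the 5-carbon isoprenoid units, had 1 enriched sgRNA. IDI1 sgRNA 1 counted 234 unsorted reads against 74 sorted ones, which gave an odds ratio of 2.28 (1.73 to 2.97; adjusted p = 2.69e-08, Fisher's exact test). The others had 207, 187 and 32 unsorted reads and 0 sorted reads, and all were called depleted. A pair of them could be placed, because their sequences occur in the RefSeq window from 250 bases before to 50 bases after the IDI1 gene start on GRCh38.p14, where the gene lies on the minus strand. No other member sgRNA occurs in the window of its own gene.

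IDI1 sgRNA 1: cgattggctgCGCGGCCCGG
IDI1 sgRNA 3: ctccggccacAGACAACCGC

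The enriched sgRNA 1 lies at chr10:1048956-1048975, on the gene's strand, 89 to 70 bases before this gene start, and a GGG PAM follows it. The depleted sgRNA 3, with 187 unsorted reads, lies at chr10:1048873-1048892 on the other strand, across the gene start (6 bases before it and 14 after), followed by a CGG PAM. IDI1 has more than one transcript, and whether sgRNA 1 cuts coding sequence of another transcript was not tested. At 80% GC, sgRNA 1 was the second richest in G and C of the 98.

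ACAT2, the cytosolic thiolase that joins acetyl-CoA units, and FDPS, farnesyl diphosphate synthase, each had 1 enriched sgRNA and 3 depleted ones. The enriched sgRNA of ACAT2 had 35 sorted reads to 55 before sorting, and its odds ratio was 4.58 (2.91 to 7.13). Its others had 221, 66 and 32 unsorted reads and 0 sorted reads. The first of these was 10.2-fold lower with the floor of 3 reads. FDPS had an odds ratio of 3.89 (2.14 to 6.88) for the sgRNA with 37 unsorted and 20 sorted reads, while the others, with 177, 57 and 57 unsorted reads, had 0 sorted reads. In both genes the summed reads were therefore lower in the sorted library, with odds ratios of 0.674 for ACAT2 and 0.439 for FDPS.

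HMGCS1, which makes HMG-CoA, and PMVK, the kinase after MVK, had 0 enriched sgRNAs. HMGCS1 kept 1 sgRNA, with 216 unsorted and 39 sorted reads and an odds ratio of 1.30 (0.900 to 1.84). Its others had 51, 11 and 6 unsorted reads and 0 sorted reads, and 1 of them, that with 51, was called depleted. PMVK had 96, 63, 27 and 24 unsorted reads and 0 sorted reads throughout, with the first pair called depleted. Summed over its sgRNAs, PMVK had a sorted share 9.72-fold lower than its unsorted share with the floor of 3 reads (upper limit 0.128).

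From squalene to the first sterol, the 3 genes went 3 ways. FDFT1, squalene synthase, kept sorted reads for all 4 sgRNAs, and SQLE, squalene epoxidase, for 1. LSS, lanosterol synthase, which closes the rings to form lanosterol, kept none.

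For FDFT1 the sgRNA with 124 unsorted and 65 sorted reads was enriched, with an odds ratio of 3.78 (2.75 to 5.14; adjusted p = 1.37e-14, Fisher's exact test). A second, with 145 and 34 reads, had an odds ratio of 1.69 (1.13 to 2.47), under the limit of 2. The remaining pair had 298 and 149 unsorted and 19 and 2 sorted reads, and was depleted, with odds ratios of 0.459 (0.273 to 0.730) and 0.0967 (0.0116 to 0.355). The intervals of the enriched and the depleted sgRNAs lie far apart, so within FDFT1 the sgRNAs differed beyond counting error.

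SQLE had an odds ratio of 8.08 (4.91 to 13.3; adjusted p = 1.67e-15, Fisher's exact test) for the sgRNA with 33 unsorted and 37 sorted reads. This was the highest odds ratio of the set outside MVK. The other SQLE sgRNAs had 77, 72 and 37 unsorted and 0 sorted reads and were all depleted. LSS sgRNAs 1 to 4 had 117, 101, 70 and 66 unsorted reads and 0 sorted reads, and all 4 were depleted. At the unsorted share, 49.1 sorted reads would have fallen to LSS, and 0 were seen. With the floor of 3 reads LSS was 16.4-fold lower (upper limit of the interval of the summed reads, 0.0755).

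CYP51A1, lanosterol 14-alpha-demethylase, had 2 enriched sgRNAs and a further one just under the limit. CYP51A1 (NM_000786.3) sgRNA 1 went from 314 reads before sorting to 112 after it, with an odds ratio of 2.57 (2.05 to 3.20; adjusted p = 1.68e-14, Fisher's exact test). CYP51A1 sgRNA 2 had 183 and 60 reads, an odds ratio of 2.36 (1.73 to 3.18; adjusted p = 2.96e-07, Fisher's exact test). CYP51A1 sgRNA 3 had 131 and 36 reads, and its odds ratio of 1.98 (1.33 to 2.88) fell just short of the limit. These intervals overlap, and the retained sgRNAs were not compared directly. CYP51A1 sgRNA 4 had 121 unsorted and 0 sorted reads and was depleted, 5.60-fold lower with the floor of 3 reads (upper limit 0.223). Over all 4 the summed reads gave an odds ratio of 2.00 (1.71 to 2.34). All CYP51A1 sgRNAs had over 100 unsorted reads, unlike those of MVK and SCAP. CYP51A1 is the gene that keeps 2 enriched sgRNAs with a minimum of 30 unsorted reads. The study could not detect CYP51A1 protein in A673 by immunoblot. It also reports that ketoconazole, a CYP51A1 inhibitor, did not change EWSR1::FLI1 levels in these cells. How these reports bear on the CYP51A1 counts was not tested.

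After CYP51A1 the route runs through the C14 reductase TM7SF2, the C4 demethylation enzymes MSMO1, NSDHL and HSD17B7, the isomerase EBP, the desaturase SC5D and the reductase DHCR7. Among these 7 genes, NSDHL and DHCR7 had 1 enriched sgRNA each and the others 0, while 59.3% of all genes had at least 1. NSDHL had an odds ratio of 4.30 (3.16 to 5.81; adjusted p = 5.90e-18, Fisher's exact test) for the sgRNA with 119 unsorted and 71 sorted reads. Its second, with 294 and 26 reads, had an odds ratio of 0.637 (0.409 to 0.952), and its last pair, with 417 and 230 unsorted reads, had 0 sorted reads. The sgRNA with 417 was the most abundant of the 56 that had 0 sorted reads. With the floor of 3 reads it was 19.3-fold lower (upper limit 0.0640, adjusted p = 6.08e-23, Fisher's exact test).

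DHCR7 makes cholesterol from 7-dehydrocholesterol, the last step of one branch. DHCR7 sgRNA 1 counted 191 unsorted reads against 106 sorted ones, which gave an odds ratio of 3.998 (3.12 to 5.10; adjusted p = 2.52e-24, Fisher's exact test). The next pair had 396 and 154 unsorted and 48 and 17 sorted reads, with odds ratios of 0.873 (0.633 to 1.18) and 0.795 (0.452 to 1.32) that do not differ from 1 by their intervals. DHCR7 sgRNA 4 had 70 unsorted and 0 sorted reads and was depleted.

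HSD17B7 had sorted reads for all sgRNAs and no call in either direction. Its sgRNAs 1 to 4 had 167, 233, 155 and 153 unsorted and 44, 46, 30 and 18 sorted reads. The odds ratios were 1.90 (1.33 to 2.66), 1.42 (1.01 to 1.96), 1.39 (0.910 to 2.07) and 0.847 (0.489 to 1.38). Each interval overlaps each of the others, those of sgRNAs 1 and 4 only narrowly. Among the genes here with 4 retained sgRNAs, HSD17B7 is the only one with such overlap. Overlap is not a test of a difference, and the sgRNAs were not compared directly.

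EBP, the sterol isomerase, kept sorted reads for all sgRNAs too, but not at 1 level. With 371, 285 and 278 unsorted and 71, 46 and 29 sorted reads, 3 of them had odds ratios of 1.38, 1.16 and 0.751, and none was called. The fourth had 378 unsorted reads and 1 sorted read, an odds ratio of 0.0191 (4.81e-04 to 0.107; adjusted p = 4.30e-19, Fisher's exact test). EBP had the largest summed unsorted count of the set, 1312 reads, and its summed odds ratio was 0.807 (0.676 to 0.958).

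MSMO1, the C4 methyl oxidase, was depleted with every sgRNA. They had 217, 269, 147 and 34 unsorted and 13, 11, 4 and 0 sorted reads, with odds ratios of 0.432, 0.295 and 0.196 where reads were seen. MSMO1 was the only gene of the set with more than 2 depleted sgRNAs that were still present in the sorted library, and the intervals of these 3 sgRNAs overlap (0.226 to 0.754, 0.145 to 0.536 and 0.0527 to 0.513). The summed odds ratio was 0.302 (0.199 to 0.441).

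SC5D, the sterol C5 desaturase, kept 1 sgRNA, with 240 unsorted and 42 sorted reads and an odds ratio of 1.26 (0.886 to 1.76). The others had 142, 137 and 78 unsorted and 0 sorted reads and were depleted. TM7SF2 was scarce before sorting, with 30, 24, 8 and 5 unsorted reads, and had 0 sorted reads. None of its sgRNAs was called, and summed it was 3.10-fold lower with the floor of 3 reads (upper limit 0.408).

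Of the 20 sgRNAs against genes of SREBP control, 6 were enriched (30.0%, beside 20.8% of all sgRNAs). Each of the 5 genes had an enriched sgRNA and an sgRNA with 0 sorted reads, a mixture that 55.2% of all genes showed, and no test was made of the difference. SCAP, the escort of SREBP, had 2 enriched sgRNAs, both from low counts. SCAP (NM_012235.2) sgRNA 1 had 31 sorted reads to 40 before sorting, and its odds ratio was 5.58 (3.38 to 9.15; adjusted p = 1.57e-10, Fisher's exact test). SCAP sgRNA 2 had 25 and 13 reads, an odds ratio of 3.75 (1.76 to 7.60; adjusted p = 6.18e-04, Fisher's exact test). SCAP sgRNA 3, with 53 unsorted reads, was depleted with 0 sorted reads, and SCAP sgRNA 4 had 6 unsorted reads and 0 sorted reads. SCAP sgRNA 4 differs at 3 bases from an sgRNA against CYP2R1, the closest pair found between the 98 and the rest of the library. The mapping allowed 3 mismatches and kept unique hits, and its part in the low count was not tested. With a minimum of 30 unsorted reads SCAP had 1 enriched sgRNA.

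SREBF1 and SREBF2 encode the SREBP transcription factors. SREBF1 sgRNA 1 had 137 unsorted and 113 sorted reads, the most sorted reads of the 98, and an odds ratio of 5.94 (4.59 to 7.68; adjusted p = 1.35e-36, Fisher's exact test), the smallest p of the set. SREBF1 sgRNA 2, with 193 unsorted reads, and the others, with 101 and 67, had 0 sorted reads and were depleted. SREBF2 had an odds ratio of 2.18 (1.55 to 3.02) for the sgRNA with 162 unsorted and 49 sorted reads. A second, with 185 and 32 reads, had an odds ratio of 1.25 (0.828 to 1.82), and the remaining pair, with 229 and 165 unsorted reads, had 0 sorted reads.

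INSIG1 and INSIG2 act against SCAP, retaining it in the endoplasmic reticulum. INSIG1 had an odds ratio of 5.40 (3.04 to 9.46) for the sgRNA with 32 unsorted and 24 sorted reads, and 0 sorted reads for the others, which had 88, 75 and 44. INSIG2 had an odds ratio of 5.23 (3.48 to 7.80) for the sgRNA with 62 unsorted and 45 sorted reads, and 0 sorted reads for the others, which had 277, 37 and 1. Over the SREBP control genes, the odds ratios of the top sgRNA lay between 5.23 and 5.94 for SREBF1, SCAP, INSIG1 and INSIG2 and at 2.18 for SREBF2. The top sgRNA is picked by its value. Summed over all sgRNAs of a gene, the odds ratios were 1.63 for SREBF1 and 2.56 for SCAP. They were 0.723 for INSIG1, 0.860 for INSIG2 and 0.787 for SREBF2.

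NPC1 and NPC2, which move cholesterol out of lysosomes, had 0 enriched sgRNAs out of 7, beside 20.8% of all sgRNAs. NPC2, the soluble carrier, had 249 unsorted and 51 sorted reads for 1 sgRNA, an odds ratio of 1.48 (1.07 to 2.00). Its others had 215, 180 and 84 unsorted and 0 sorted reads and were depleted. NPC1, the membrane protein, had 57, 49 and 19 unsorted and 5, 0 and 0 sorted reads, and only the sgRNA with 49 was called depleted. With 5 sorted reads, the odds ratio of the first (0.632, interval 0.198 to 1.56) could not be told from 1 at this depth.

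By stage of the route, the sgRNAs differed in how many reads they had before sorting and in how many kept sorted reads. Those of the mevalonate steps had a median of 57 unsorted reads, and 19 of 27 (70.4%) had 0 sorted reads. From lanosterol to cholesterol the median was 161 unsorted reads, and 12 of 32 (37.5%) had 0 sorted reads. For squalene and cyclisation the values were 89 and 7 of 12, for SREBP control 71 and 13 of 20, and for lysosomal export 84 and 5 of 7. Enriched sgRNAs numbered 6, 4, 2, 6 and 0 in the same order. Over the library 20.8% of sgRNAs were enriched and 57.6% had 0 sorted reads. No test was made between stages.

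The share without sorted reads moved with the unsorted count in the whole library. It was 76.9% for sgRNAs with under 30 unsorted reads, 65.5% for 30 to under 100, 52.4% for 100 to under 200 and 41.1% for 200 or more. For the sterol sgRNAs the numbers were 12 of 15, 26 of 33 (78.8%), 11 of 26 (42.3%) and 7 of 24 (29.2%). Under 30 unsorted reads there were 15 of the 98 (15.3%, beside 13.9% of all sgRNAs), 8 of them in the mevalonate steps. The part of the unsorted count in the difference between stages was not tested. Among the 42 sterol sgRNAs with sorted reads the median was 38 reads, and the 18 enriched ones had a median of 54.5, ranging from 13 to 113 (55 over all enriched sgRNAs of the library).

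Because more than 50% of the sgRNAs had 0 sorted reads, the median log2 ratio of the shares, sorted over unsorted, rests on the pseudocount. It was -2.77 over the 98 sgRNAs and -2.82 over all sgRNAs with 0.5 reads added, and -0.61 and -0.81 with counts of 0 set at the floor of 3 reads. Base composition did not stand apart, with a median of 50% GC for the sterol sgRNAs and for the library.

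The other genes of the pathway, 39 in 4 lists, were read by the same rules. Of their 147 sgRNAs, 29 (19.7%) were enriched and 81 (55.1%) depleted, and 5 of the 39 genes (12.8%) had at least 2 enriched sgRNAs and none had 3. Beside the library's 20.8% and 18.8% the shares for enrichment show no excess. Depleted sgRNAs made up 51.7% of the library. In these lists 100 sgRNAs (68.0%) had 0 sorted reads, beside 57.6% of all sgRNAs. Their median unsorted count was 82 reads, beside 103. All sgRNAs had 0 sorted reads for 10 of the 39 genes (25.6%), beside 14.6% of all genes. No test was made of these differences. The SREBP proteases and the genes of sterol-regulated degradation had 6 enriched sgRNAs of 36 and 24 depleted. Genes of sterol storage, efflux and transport had 9 of 50 enriched and 30 depleted, and genes that use isoprenoids 7 of 38 enriched and 16 depleted. The 6 accessory or paralogous sterol enzymes had 7 of 23 enriched (30.4%) and 11 depleted, and 3 of these genes had 2 enriched sgRNAs each (LBR, CYB5R3 and IDI2).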

How the data were processed

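The authors extracted the guide sequence of each MiSeq read, mapped it to the Brunello sgRNAs with Bowtie (1.2.2 in the submitters' processing notes; unique hits, up to 3 mismatches) and deposited whole-number read counts for each sgRNA, not normalized, beside each library's total. Deposited odds ratios and p-values of the authors' own comparison were not used. No genome build is named, so coordinates are given only where a guide was found in a RefSeq window of GRCh38.p14.

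The 3 repeated entries of 74339 were dropped, after which the counts sum to the deposited totals (the unsorted library is 7.20 times deeper). The 25 genes were found by symbol, and all their accessions matched RefSeq. Fisher's exact test was run on all 74336 sgRNAs, and its code was tested on simulated data. Of 200 sgRNAs with at least 100 unsorted reads changed 4-fold, 100% were recovered, and scarcer ones were not simulated. Of 200 changed to 0.25-fold, 92.5% were recovered where they had at least 200 unsorted reads and 61.5% where they had at least 100. The simulated counts carried counting error only, less than the spread between the real libraries. These shares therefore do not give the power of the test in these data. The genes, lists and rules were chosen with earlier results of these data known. All sgRNAs of the 25 genes are described. Full statistics go to those of genes with at least 2 enriched sgRNAs, to the extremes and to the top calls of the other genes. Python 3.11.15, numpy 2.4.6, pandas 2.3.3 and scipy 1.17.1 were used. Alternatives changed the odds ratio limit, the adjustment, the minimum count, the scaling (1457 olfactory receptor sgRNAs), the test (negative binomial) and the pseudocount.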

Additional observations from a re-analysis of the deposited data

How the results depend on the processing

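No paired analysis was possible because each population has 1 library, and for the same reason no library could be left out. Genes that had 2 or more enriched sgRNAs numbered 3, and became 5 with an odds ratio above 1 (adding FDFT1 and HSD17B7, beside 26.0% of all genes), 1 with an odds ratio of at least 4 (MVK, beside 6.03%), 2 with Bonferroni adjustment (MVK and CYP51A1, beside 13.2%) and 1 with at least 30 unsorted reads (CYP51A1, beside 15.4%). Enriched sgRNAs, 18, numbered 9 with an odds ratio of at least 4, where 11.0% of all sgRNAs passed, and 15 to 24 under the other Fisher settings. Depleted sgRNAs, 49, numbered 17 with Bonferroni adjustment (23.5% of all) and 46 to 50 otherwise. Under the negative binomial test, with a dispersion of 6.06 estimated over sgRNAs with at least 30 unsorted reads, 0 of the 98 were enriched (0.561% of all), 0 were depleted and 0 genes had at least 2, and no sgRNA of the whole library was depleted. That dispersion is a mean over sgRNAs, chosen after the data were seen because 1 very abundant sgRNA held 75.5% of the weight in a sum over sgRNAs. The summed estimate was 1.09 (1.43 without that sgRNA). With 1.09 as the dispersion 3 of the 98 were enriched (4.72% of all), 0 were depleted and 1 gene (MVK) had at least 2. No sgRNA of the library was depleted at 1.09 either, so neither dispersion could check the depletion calls. The median log2 ratio was -3.26 with at least 30 unsorted reads (-3.56 over the library), -0.12 with a pseudocount of 5 (-0.32) and -2.44 as a median over genes (-2.41). Calls below 30 unsorted reads, which include all of MVK, are the ones that depth limits most.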

Other observations

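The genes named here were chosen after their values were seen. IDI2, a paralog of IDI1, had 2 enriched sgRNAs, from 66 to 125 reads (odds ratio 13.6, exact 95% interval 10.0 to 18.7) and from 93 to 94 reads (7.28, 5.41 to 9.80), and another with 0 sorted reads. LBR, a C14 reductase like TM7SF2, had 1 sgRNA with 0 unsorted and 47 sorted reads. With the unsorted count set to the floor of 3 reads the rise was 113-fold (lower limit of the interval 88.2). Another LBR sgRNA, with 28 unsorted and 41 sorted reads, had an odds ratio of 10.5, and the remaining pair, with 142 and 139 unsorted reads, had 0 sorted reads.

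RNF145, a ubiquitin ligase of the endoplasmic reticulum, had 11 unsorted and 56 sorted reads for 1 sgRNA, an odds ratio of 36.7 (19.01 to 77.6), which is larger than any among the 25 genes. NR1H3, the oxysterol receptor LXR alpha, had an odds ratio of 15.1 (10.3 to 22.5) for 1 sgRNA with 41 unsorted and 86 sorted reads, and ABCG1, a sterol exporter, had odds ratios of 10.3 and 5.61. These genes also had sgRNAs with 0 sorted reads. TMEM97, LIPA, MYLIP and SCARB1 were among the 10 of the 39 genes with 0 sorted reads for all sgRNAs (25.6%, beside 14.6% of all genes).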
